A study of Mus musculus with 6 samples.

Results

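The transcriptome of the normal newborn mouse retina was read from 3 control libraries, out of 6 deposited bulk RNA-seq libraries. The members were chosen by their titles, PDGFR-WT2, PDGFR-WT3 and PDGFR-WT4, and are called control 2, control 3 and control 4. These animals were Lhx2 lox/lox: both copies of Lhx2, a LIM homeodomain factor of eye and forebrain progenitors, carried loxP sites, and their genotype label names no Cre recombinase. The mice were of mixed, primarily CD-1, strain, and retina was taken at postnatal day 0.5. The other 3 libraries carried the same floxed alleles with Pdgfrα-Cre and were not used, so no genotypes were compared and no test was made. Elsewhere the labels call the control animals wild type, which a floxed genotype is not in the strict sense. Nothing was given on pooling of the left and right retina or on litters.

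The mouse retina is built from 1 pool of multipotent progenitors that leave the cell cycle in a conserved order. Ganglion cells, horizontal cells, cones and early amacrine cells come first, and rods, bipolar cells and Müller glia, the radial glia of the retina, come last. At birth the tissue therefore holds a layer of dividing progenitors, an inner layer of young ganglion and amacrine cells, and photoreceptor precursors.

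Gene counts totalled 43854446 in control 2, 35813377 in control 3 and 32698665 in control 4. Levels of 1 gene across libraries are given as CPM, that is, as reads per 1000000 gene counts. Levels of different genes are compared as TPM, counts divided by the merged exon length of the gene and scaled so that each library has the same sum. Single-library values stand in the order control 2, control 3, control 4, and means are given ± SD (n = 3). In bulk RNA, fewer cells of a type and less RNA per cell cannot be told apart.

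Control 2 stood apart from the other controls. Over 13062 detected nuclear genes, the Spearman correlation between libraries was 0.993 for controls 3 and 4, and 0.908 and 0.911 for control 2 with controls 3 and 4. Of these genes, 96.2% lay within 1.5-fold between controls 3 and 4, against 48.6% and 49.0% for the pairs with control 2. Mitochondrially encoded genes took 1.79, 7.14 and 7.83% of gene counts, and ribosomal protein genes 3.60, 1.91 and 1.89%. The genes the results turn on are therefore printed for each library, and an SD over the controls includes the distance of control 2 from the other two.

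A gene was called detected where it reached 1 CPM in each control. This held for 13075 of 39179 gene rows, 33.4%, and for 12326 of 21303 protein-coding genes, 57.9%. Without control 2 the count was 13425. The other detected rows included 158 processed pseudogenes, 146 lincRNAs and 135 antisense RNAs. Reads on a processed pseudogene may come from its parent gene. Reads on antisense RNAs, and on any lincRNA that overlaps another gene, may come from the overlapping gene, as it is not known whether counting used strand. The median of the mean level was 5.40 TPM over all protein-coding genes and 25.6 TPM over those detected, and 1710 protein-coding genes reached 100 TPM. The 100 highest genes by mean CPM held 13.3, 19.4 and 20.2% of gene counts, or 17.6 ± 3.80% (SD, n = 3), and the 1000 highest held 46.9 ± 3.84%.

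Nuclear genes were ranked by mean TPM. Eef1a1, the elongation factor that brings aminoacyl-tRNA to the ribosome, had the highest mean, with 12304, 5534 and 5489 TPM. Tuba1a, the α-tubulin of growing neurons, followed with 9439, 4147 and 4116 TPM. Both were more than 2-fold higher in control 2 than in either other library, while controls 3 and 4 nearly coincided. Ptma, a histone-binding chromatin protein of dividing cells, ranked 4, 1 and 1 among nuclear genes and varied less, with 5232, 5655 and 5931 TPM. Calm2, a calmodulin gene, averaged 3602 ± 692 TPM, and Hsp90ab1, a constitutive chaperone, 3531 ± 499 TPM. The 14-3-3 gene Ywhae had 1769, 4069.7 and 3951 TPM and was lowest in control 2.

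The 30 highest also held genes of dividing cells and young neurons. Ccnd1, the D-type cyclin through which retinal progenitors enter the cell cycle, ranked 12 among nuclear genes by mean, with 3069, 2549.8 and 2328 TPM. Nnat, an imprinted membrane protein of young neurons, had 2330.5, 3059 and 3016 TPM. Stmn1, a microtubule destabiliser of proliferating and differentiating cells, averaged 2313 ± 425 TPM, and Hmgb2, a chromatin protein of dividing cells, 1472 ± 305 TPM. Of translation genes among the 30, Rpl4 averaged 2119 ± 229.9 TPM, Rps3a1 2048 ± 400.2 TPM and Rps4x 1776 ± 261 TPM, while Rplp1 was spread widely at 4062, 1066 and 1007 TPM. Of the 30, 2 bore placeholder names. When control 2 was left out, 21 of the same 30 genes remained in the 30 highest.

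Mitochondrially encoded genes were ranked apart. mt-Cytb, a subunit of respiratory complex III, had 9108, 54213 and 58322 TPM. The level of mt-Nd1, of complex I, was 12926, 50853 and 54586 TPM. Control 2 was the lowest library for all 13 detected members. mt-Co1, mt-Co2 and mt-Co3 encode core subunits of the same complex IV, yet their counts lay far apart. For mt-Co1 the level was 5666, 11255 and 13090.0 CPM. It was 6.64, 141 and 90.0 CPM for mt-Co2 and 3.4, 38.7 and 24.5 CPM for mt-Co3. Reads aligned to several places were not counted on genes, so genes with near-identical copies elsewhere in the genome can be undercounted; its part in the low mt-Co2 and mt-Co3 values was not tested.

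Of 755 genes assigned by symbol to 32 transcription factor families, 442 were detected, 58.5%, close to the 57.9% of protein-coding genes in general. Their median was 25.2 TPM among those detected, and 62 reached 100 TPM. Without control 2, 450 were detected. Families detected in full included 10 of 10 E2F genes, 7 of 7 ID and E protein genes, 4 of 4 NFI genes, 4 of 4 EBF genes and 8 of 8 SMAD genes. TALE homeodomain genes followed with 17 of 18. Paired and paired-like homeodomain genes were selective, with 8 of 29, as were proneural and neuronal bHLH genes, with 13 of 42. None of 38 HOX genes, which pattern hindbrain, cord and trunk, was detected. There, 32 had no read in any control and the summed level of all 38 was at most 0.39 CPM in any library.

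The highest ranks included neurogenic and eye-specification factors. Hes6 (ENSMUSG00000067071, chromosome 1, 91411483 to 91414038, minus strand, GRCm38), a HES-family protein that favours neuronal differentiation, had the highest mean, with 1279.9, 535 and 538 TPM. Neurod1, a bHLH factor of photoreceptor and amacrine precursors, came next with 319, 1011 and 943 TPM. Their order depended on the library: Hes6 ranked 1, 6 and 5 among factors and Neurod1 ranked 11, 1 and 1. Plagl1, an imprinted zinc finger factor that restrains proliferation, had 313, 969 and 814 TPM. Hes6 was thus highest in control 2, and Neurod1 and Plagl1 lowest there.

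Crx (ENSMUSG00000041578, chromosome 7, 15865947 to 15879968, minus strand, GRCm38), the homeodomain factor that switches on photoreceptor genes, had the narrowest range of the 10 highest factors, with 468, 442 and 478 TPM and ranks of 6, 9 and 8. Six6, an eye-field homeodomain factor, had 204, 207 and 206 TPM, the narrowest range of the 30. Zbtb18, a neural repressor, averaged 227 ± 11.5 TPM, Id1, an inhibitor of bHLH factors, 262 ± 22.9 TPM, and Rorb, a nuclear receptor needed for rods and other retinal neurons, 196 ± 20.6 TPM. A wide range was seen for Id2, another such inhibitor, with 384, 112 and 104 TPM. Tfap2b, a factor of amacrine and horizontal cells, was low in control 2 and had 146, 360.1 and 401 TPM. Among the 30 factors, the range over libraries was under 1.2-fold for 4 and over 2-fold for 10. Controls 3 and 4 lay within 1.2-fold of each other for 29 of them. Control 2 was the highest library for 15 and the lowest for 13, where over all detected nuclear genes it was highest for 54.4% and lowest for 38.1%.

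**Figure D1:**
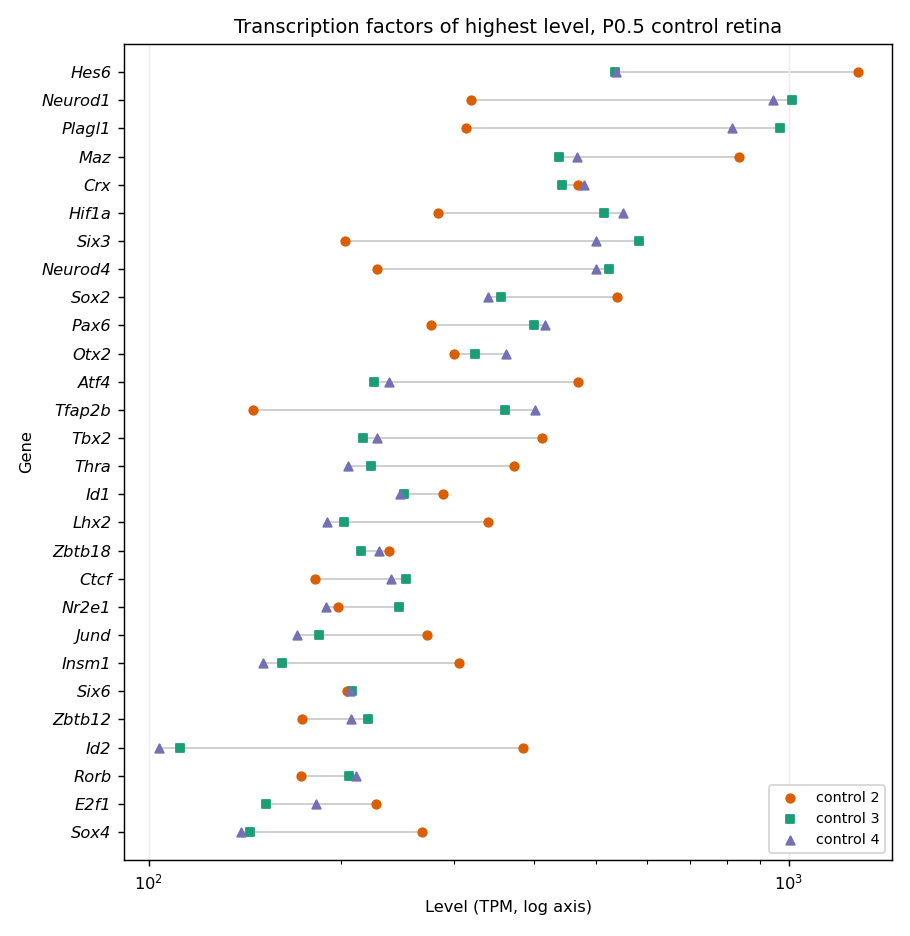
Level of 28 of the 30 transcription factors of highest mean, in TPM on a log axis, 1 row per gene and 1 point per control library; the line spans the libraries. Points of controls 3 and 4 nearly coincide, whereas control 2 is highest for 14 of these genes and lowest for 12.

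The order of neighbouring factors could not be resolved. Of the 29 pairs next to each other in the mean ranking, 1 kept the same order in every library and 0 had ranges that did not overlap. Over all 435 pairs among the 30, 233 kept their order in every library and 163 had ranges apart. Membership was steadier than order: 25, 26 and 26 of the 30 were among the 30 highest of controls 2, 3 and 4 taken alone. Homeodomain and bHLH factors supplied 7 members each. The share of each class among all factors assigned to families was not computed. The equal counts therefore do not show that either class was more frequent here than among factors in general.

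Marker genes were read in lists of textbook genes for each class, 11 of retinal cells and 10 of other cells. The median share of detected members over the retinal lists was 93.75%, against 57.9% of all protein-coding genes; as the lists hold known retinal genes, this describes the lists. Of 206 genes in the retinal lists, 11 stand in more than 1. Eye-field and retinal identity factors, the genes that set aside and maintain retina, were detected in 12 of 12 cases with a list median of 227 TPM, or 212 TPM without control 2. Lhx2 itself had 339, 202 and 189.8 TPM, or 244 ± 82.8 TPM (SD, n = 3), and ranked 10, 28 and 25 among factors. Control 2 was the highest library for Lhx2. Six3, which represses Wnt signalling in the anterior neural plate, had 202, 583 and 499 TPM and was lowest in control 2. Sox2, a SOX factor of neural progenitors, averaged 411 ± 111 TPM, Pax6, the paired homeodomain factor shared by progenitors, amacrine and ganglion cells, 364 ± 76.6 TPM, and Otx2, the homeodomain factor of photoreceptor and bipolar fates, 328 ± 31.4 TPM. Rax, the earliest eye-field homeodomain factor, had 115, 49.2 and 46.2 TPM.

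The progenitor list, which shares several of these genes, was detected in 22 of 22 cases with a median of 140 TPM, and 116 TPM without control 2. Dapl1, a small protein of late retinal progenitors, had 961, 1429.7 and 1190.4 TPM. Fgf15, a fibroblast growth factor made by embryonic retinal progenitors, had 211, 140.0 and 109 TPM. Nr2e1, an orphan receptor that keeps progenitors cycling, averaged 211 ± 30.8 TPM. Of other genes of early embryonic progenitors, Lin28b, an inhibitor of let-7 maturation, had 1.13, 3.08 and 3.68 TPM. Hmga2, an early chromatin factor, had 8.64, 10.8 and 10.3 TPM. Lin28b was thus below, and Hmga2 above, the median of 5.40 TPM over all protein-coding genes.

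Cell cycle genes were detected in 26 of 26 cases, with a median of 117 TPM. Pcna, the sliding clamp of replication, had 530.2, 473 and 451 TPM. Top2a, the topoisomerase of dividing cells, had 383, 413 and 357 TPM. Both ranges were narrow. Mki67, a marker of cycling cells, had 269.8, 514 and 468 TPM and was lowest in control 2. So was Ccna2, the S-phase and G2 cyclin, with 262, 353 and 341 TPM. The Mcm6 helicase subunit had 299, 191 and 162 TPM and was highest there. S-phase, G2 and M-phase genes were all present. By library size, control 2 was the highest library for 16 members and the lowest for 7. On that scale 54.4% and 38.1% of all detected nuclear genes were highest and lowest there. Under TMM scaling control 2 was highest for 16 members and lowest for 10.

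Neurogenic genes, expressed as progenitors commit to neurons, were detected in 20 of 20 cases, with a median of 132 TPM. Below Hes6 and Neurod1, Neurod4, a bHLH factor of differentiating retinal neurons, had 227, 524 and 499 TPM. Insm1, a zinc finger factor of newborn neurons, had 305, 161 and 151 TPM. Atoh7, the bHLH factor required for ganglion cells, was at the foot of the list, with 32.7, 12.2 and 3.81 TPM, from 652, 199 and 58 reads, and differed between all 3 libraries. Sox11, a SOX factor of young neurons, was even across them, with 18.9, 19.8 and 19 TPM.

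Notch signalling keeps neighbouring progenitors from differentiating at once: ligands on committed cells activate receptors that release an intracellular domain, which with Rbpj switches on Hes and Hey repressors. The list of 24 genes was detected in full, with a median of 44.9 TPM, or 32.7 TPM without control 2. Among ligands Dll1 was the highest in every library, at 85.3 ± 15.4 TPM, ahead of Dll3 at 55.4 ± 29.4 TPM, Dll4 at 35 ± 13 TPM, Jag2 at 10.1 ± 2.71 TPM and Jag1 at 3.86 ± 0.177 TPM. Notch1 was the main receptor transcript, with 151, 86.1 and 84.9 TPM, above Notch2 (11.4 ± 0.792 TPM), Notch3 (9.93 ± 4.58 TPM) and Notch4 (3.0 ± 1.49 TPM), and its lowest library exceeded the highest value of each. Rbpj, the DNA-binding partner, averaged 30.1 ± 5.03 TPM. Among targets, Nrarp, a feedback inhibitor, had 319.6, 143 and 142 TPM. The repressor Hes1 had 171, 113 and 96.4 TPM. Its relative Hes5 had 267, 46.4 and 60.4 TPM. All 3 were highest in control 2. Control 2 was the highest library for 18 of the 24 genes and the lowest for 5, and under TMM scaling for 17 and 6. Over all detected nuclear genes these shares were 54.4% and 38.1% by library size, and were not computed under TMM scaling.

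Late progenitor and gliogenic factors were detected in 15 of 16 cases, with a median of 93.3 TPM. Sox8, a SOX factor of glial competence, had 153, 209 and 183 TPM. Sox9, another, had 42.1, 114 and 102 TPM. Both were lowest in control 2. The NFI genes, which act in late progenitors, were ordered Nfix at 44.1 ± 7.67 TPM, Nfib at 31.4 ± 9.08 TPM, Nfic at 24.7 ± 2.13 TPM and Nfia at 17.3 ± 3.77 TPM. Nfib and Nfic were in the opposite order in control 2. The gene not detected was Sox10, a factor of oligodendrocytes and neural crest, with 0.114 TPM on average.

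Genes of mature Müller glia were detected in 20 of 22 cases, with a median of 84.6 TPM. Many of them are also active in progenitors, so their levels do not count glia. Dkk3, a secreted Dickkopf-family protein, had 1675, 787 and 752 TPM. Glul, glutamine synthetase, had 792, 691 and 617 TPM. Both were highest in control 2 and lowest in control 4. Slc1a3, the glial glutamate transporter GLAST, had 111, 201 and 176 TPM. Rlbp1, the retinaldehyde-binding protein CRALBP, had 154, 111 and 109 TPM. Other glial genes ranged down to a few reads. Kcnj10, the inward rectifier of mature glia, averaged 27.2 ± 4.47 TPM, Aqp4, the water channel, 0.481 ± 0.251 TPM, and Abca8a had 2 reads over all controls, under a floor of 3 reads. Gfap, the filament of astrocytes and reactive glia, had 29.3, 17.3 and 23.9 TPM.

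**Figure D2:**
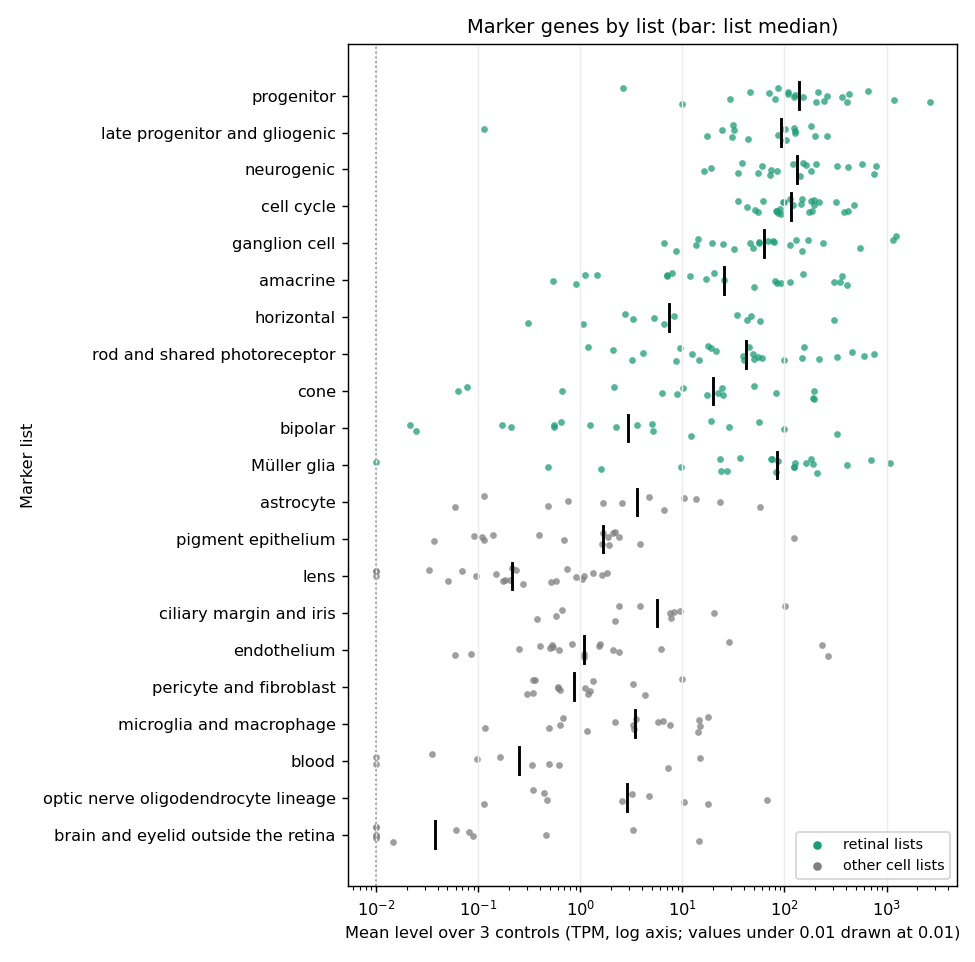
Mean level over the 3 controls of each listed marker gene, in TPM on a log axis, with 1 row per list, 1 point per gene and a bar at the list median. Progenitor, neurogenic and cell cycle lists have medians over 100 TPM, and the lens, blood and brain and eyelid lists have medians under 1 TPM.

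The ganglion cell list, for the neurons whose axons form the optic nerve, was detected in 22 of 22 cases with a median of 62.5 TPM. Tubb3, the β-tubulin of young neurons, had 2042, 871 and 817 TPM. Sncg, γ-synuclein, was lowest in control 2, with 934, 1276 and 1276 TPM. The growth cone protein Gap43 was highest there, with 765, 461 and 415 TPM. The POU factors that specify these cells were ordered, in every library, Pou4f1 at 114 ± 29.3 TPM, Pou4f2 at 49.2 ± 1.82 TPM and Pou4f3 at 19.4 ± 9.58 TPM. Rbpms, an RNA-binding protein of ganglion cells, had 68.5, 69.6 and 68.3 TPM, nearly the same in every library. Opn4, melanopsin of the intrinsically photosensitive cells, was already detected, with 12.5, 8.57 and 5.02 TPM. Nefh, the heavy neurofilament of mature axons, averaged 6.57 ± 1.04 TPM, below Nefl at 168 ± 7.79 TPM and Nefm at 149 ± 27.9 TPM.

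Amacrine genes were detected in 19 of 21 cases, with a median of 25.4 TPM and 33.7 TPM without control 2. Calb2, calretinin, had 477, 306 and 269.9 TPM. The neuronal RNA-binding protein Elavl3 had 151, 149 and 154 TPM and was even across libraries. Ptf1a, the bHLH factor that commits cells to amacrine and horizontal fates, had 17.5, 9.81 and 8.37 TPM. Enzymes and transporters of transmitters differed widely. Gad2, the synaptic GABA-synthesising enzyme, averaged 50.6 ± 3.95 TPM and Slc6a9, the glycine transporter, 7.03 ± 1.73 TPM. Chat, of cholinergic starburst cells, averaged 1.46 ± 0.0905 TPM, and Th, of dopaminergic cells, had 1.28, 0.169 and 0.181 TPM. Horizontal cell genes were detected in 11 of 12 cases, with a median of 7.39 TPM. Prox1, a homeodomain factor of horizontal and other neurons, averaged 46.6 ± 4.92 TPM, Onecut2 8.23 ± 1.23 TPM, Onecut1 6.56 ± 2.87 TPM and Lhx1, a LIM factor that positions horizontal cells, 5.24 ± 1.55 TPM. Calb1, calbindin, had 2.96, 2.47 and 2.8 TPM.

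Photoreceptor precursors express the factors first and reach full levels of the light-sensing machinery later. The rod and shared photoreceptor list was detected in 26 of 26 cases, with a median of 42.4 TPM, and the cone list in 13 of 16, with a median of 19.8 TPM. Both counts were the same without control 2. The regulators were high: below Neurod1, Crx and Otx2, the rod nuclear receptor Nr2e3 had 126, 143 and 181 TPM. The rod-determining leucine zipper factor Nrl had 68, 38.6 and 44.8 TPM. Prdm1, a repressor of bipolar fate, had 84.5, 112 and 98 TPM. Each had its highest value in a different library. The interphotoreceptor retinoid-binding protein Rbp3 had 342, 149 and 160.3 TPM. Recoverin, Rcvrn, a calcium sensor, had 49.2, 31.1 and 38.3 TPM.

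Rod genes of the light response ranged widely in reads, which are not scaled for length or library size. Sag had 5780, 2719 and 3045 reads, Pde6g 2153, 1464 and 917, and Pde6b 1141, 580 and 623. Others had fewer reads. Gnat1, the rod transducin α subunit, had 136, 89 and 86 reads, or 3.66, 2.94 and 3.04 TPM. Pde6a, a catalytic subunit of the rod phosphodiesterase, had 55, 48 and 68 reads, or 0.957, 1.02 and 1.55 TPM. Cone genes were uneven too. Opn1sw (ENSMUSG00000058831, chromosome 6, 29376671 to 29388468, minus strand, GRCm38), the short-wavelength cone opsin, had 120.2, 62.2 and 67.6 TPM and was highest in control 2. Its GENCODE span is longer than the RefSeq gene, whose start lies inside it. Gnb3 and Gngt2, cone transducin β and γ subunits, averaged 195 ± 98.4 TPM and 193 ± 29.4 TPM, and Gnat2, the α subunit, 24.5 ± 5.28 TPM. Thrb, the thyroid hormone receptor needed for the middle-wavelength opsin, averaged 17.3 ± 5.35 TPM, and Rxrg, its partner receptor, 22.3 ± 9.61 TPM. The middle-wavelength opsin Opn1mw itself had 3 reads in all, no more than the floor, and Pde6h, the cone phosphodiesterase inhibitory subunit, 21. Arr3, cone arrestin, averaged 2.13 ± 0.548 TPM.

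**Figure D3:**
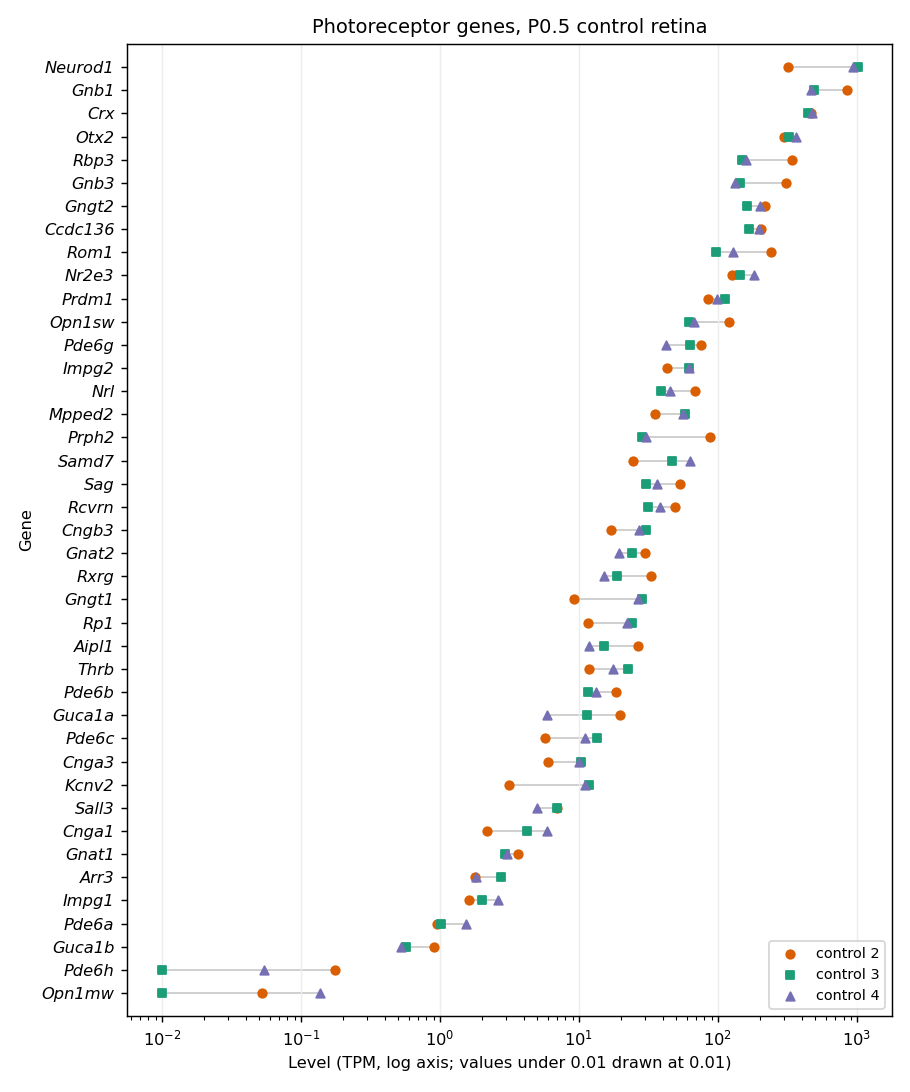
Level of rod, shared and cone photoreceptor genes in each control library, in TPM on a log axis, ordered by mean; the line spans the libraries. Neurod1, Crx and Otx2 lie above 100 TPM, Opn1sw between 62.2 and 120 TPM, and Opn1mw and Pde6h under 1 TPM.

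The promoters of 4 of these genes are printed because they span the range from high to undetected: Crx and Rbp3 with a match to the core homeodomain motif of Crx and Otx2, and the cone opsins Opn1sw and Opn1mw without. Each run is the 250 bases before the RefSeq gene start on GRCm38.p6, on the strand of the gene. The motif searched was TAATCC, on both strands, so GGATTA marks the reverse strand; matches are in capitals.
Crx (chr7:15879956-15880205, minus strand): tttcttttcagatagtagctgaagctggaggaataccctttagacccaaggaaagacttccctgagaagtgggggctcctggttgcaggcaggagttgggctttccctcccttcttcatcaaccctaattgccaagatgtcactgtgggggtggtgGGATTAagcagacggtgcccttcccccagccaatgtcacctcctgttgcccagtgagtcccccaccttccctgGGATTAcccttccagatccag
Rbp3 (chr14:33953753-33954002, plus strand): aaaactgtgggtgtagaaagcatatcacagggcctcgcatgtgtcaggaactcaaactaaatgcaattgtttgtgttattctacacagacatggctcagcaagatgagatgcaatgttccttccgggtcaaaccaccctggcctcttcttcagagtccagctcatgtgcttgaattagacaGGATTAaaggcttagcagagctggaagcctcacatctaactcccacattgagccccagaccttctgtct
Opn1sw (chr6:29380514-29380763, minus strand): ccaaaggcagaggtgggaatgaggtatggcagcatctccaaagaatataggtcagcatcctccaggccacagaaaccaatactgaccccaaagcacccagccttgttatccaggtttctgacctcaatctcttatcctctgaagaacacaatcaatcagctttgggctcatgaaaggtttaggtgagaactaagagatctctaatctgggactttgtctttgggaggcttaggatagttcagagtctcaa
Opn1mw (chrX:74127216-74127465, plus strand): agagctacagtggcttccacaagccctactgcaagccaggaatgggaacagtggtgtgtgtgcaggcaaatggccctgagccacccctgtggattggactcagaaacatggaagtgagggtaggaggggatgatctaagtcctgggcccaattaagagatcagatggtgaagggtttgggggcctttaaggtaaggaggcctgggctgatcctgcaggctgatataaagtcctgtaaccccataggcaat
Crx has 2 matches, with starts at 94 and 21 bases before the gene start, and Rbp3 has 1, at 69. Across the RefSeq promoter table, 6.25% of 32851 promoters of this length held the motif, or 7.21% of 27025 genes. It was found in 9 of 19 rod and shared photoreceptor genes with an entry (Aipl1, Cnga1, Crx, Gngt1, Guca1a, Otx2, Rbp3, Sag and Samd7), in 2 of 10 cone genes (Gnat2 and Thrb), in 1 of 15 progenitor genes and in 0 of 22 cell cycle genes. Such a match describes the letters in the window and does not measure binding.

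Bipolar cells, the interneurons that link photoreceptors to ganglion cells, were the retinal class with the lowest list median, 2.92 TPM, with 11 of 18 genes detected. Otx2 and Isl1 are shared with other classes. Bhlhe22, a bHLH factor of certain bipolar and amacrine cells, had 66, 121 and 113 TPM. Irx6, an Iroquois factor of OFF bipolar cells, had 33.5, 27.8 and 25.2 TPM. Prkca, the kinase used to label rod bipolar cells, had 20.1, 21.4 and 15.7 TPM. The 3 genes kept the same order in every library and their ranges did not overlap. Irx6 at its lowest, 25.2 TPM, was close to Prkca at its highest, 21.4 TPM. Cabp5, a calcium-binding protein of bipolar cells, had 8.63, 18.2 and 9.48 TPM. Genes of the ON bipolar synapse are given as reads, which are not scaled for length or library size. Gpr179 had 476, 633 and 427 reads and Lrit3 had 194, 146 and 102. The glutamate receptor of this synapse, Grm6, had 4 reads over all controls. Trpm1, the channel it gates, had 189, 40 and 47 reads, or 0.553 ± 0.429 TPM on average. Vsx1, a homeodomain factor of cone bipolar cells, had 19 reads. Bhlhe23, a factor required for rod bipolar cells, had 2.

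The retina carries maps along its axes, read by growing axons. Axis patterning genes were detected in 21 of 22 cases, with a median of 29.2 TPM. On the dorsal side, Tbx2, a T-box factor, had 412, 216 and 228 TPM. Aldh1a1, a retinoic acid-synthesising enzyme, had 116, 72.8 and 63.9 TPM. Efnb2, an ephrin ligand, had 95.7, 99.5 and 83.3 TPM and varied least of these. Ventrally, the homeodomain factor Vax2 had 143, 46.4 and 38.5 TPM. The ephrin receptor Ephb2 had 120.0, 98.4 and 84 TPM. Along the other axis, the homeodomain factor Hmx1 had 189, 70.7 and 58 TPM and temporal Foxd1 averaged 9.24 ± 4.2 TPM. Dorsal and ventral markers were present together, although the dorsal signal Bmp4 had only 39, 4 and 3 reads. Hmx1 and Vax2 were each over 2-fold higher in control 2. By library size, control 2 was the highest library for 15 of the 21 detected genes, against 54.4% of all detected nuclear genes. Under TMM scaling it was the highest for 14, and the share over all genes was not computed on that scale.

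Other cell lists were read against the 57.9% of protein-coding genes detected in general. Ciliary margin and iris genes, from the rim of the retina, were detected in 8 of 12 cases, with a median of 5.68 TPM. Their highest gene, Gas1, a membrane protein at 101 ± 29.2 TPM, also stands in the late progenitor list. Wfdc1, a secreted protein of the ciliary margin, had 24.2, 2.14 and 2.36 TPM and was highest in control 2. Msx1, a homeodomain factor of the ciliary body, averaged 0.669 ± 0.724 TPM. Lens genes were detected in 0 of 23 cases, with a summed level of 8.37, 3.55 and 4.25 CPM; Cryaa, the αA-crystallin, averaged 1.05 ± 1.13 TPM, and Foxe3 and Lim2 had no reads. Red blood cell genes were detected in 0 of 10 cases, although the β-globin Hbb-bs had 36.3, 0.651 and 7.93 TPM. The pigment epithelium list had 7 of 16 genes detected with a median of 1.66 TPM, and its highest gene, Rlbp1, is shared with Müller glia; Rpe65, the isomerase that defines this epithelium, had 2 reads. Genes of brain and eyelid outside the retina were detected in 2 of 12 cases (Krt15, a keratin, and Tbr1, a T-box factor also known in some ganglion cells), and Nkx2-1, Hoxa5, Hoxb3, Krt5 and Hoxd3 had no reads. These values were taken over whole lists; their part in the retinal levels was not tested.

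Lists were also read for cells that enter the retina through the optic nerve or with vessels. Of the astrocyte list 7 of 12 genes were detected, with a median of 3.62 TPM; Pdgfra, the receptor of migrating retinal astrocytes, had 7.12, 11.7 and 12.1 TPM. Pax2, a paired factor of these cells, had 3.5, 5.21 and 5.38 TPM. Microglial genes were detected in 8 of 16 cases, led by the complement gene C1qa, with 31.5, 11.7 and 10.1 TPM. Endothelial genes were detected in 8 of 19 cases, with a median of 1.09 TPM. There Slc2a1, the glucose transporter GLUT1, averaged 269 ± 111 TPM and Kdr, the VEGF receptor 2, also known in retinal progenitors, 233 ± 21.2 TPM, but the defining endothelial genes Pecam1 and Cdh5 averaged 1.09 ± 0.0953 TPM and 2.37 ± 0.724 TPM. Kdr had 210.4, 253 and 235 TPM, so every library showed this gap. Pericyte and fibroblast genes were detected in 7 of 14 cases, with a median of 0.87 TPM. Of the 7, 6 were highest in control 2, against 54.4% of all detected nuclear genes. Pdgfrb, the PDGF receptor of pericytes, had 7.11, 2.88 and 3.03 TPM. Col3a1, a fibroblast collagen, had 2.92, 0.417 and 0.359 TPM. Rgs5, a pericyte signalling regulator, was the exception, with 4.34, 13.7 and 12 TPM. Oligodendrocyte lineage genes were detected in 5 of 10, Cnp, a myelin enzyme with other sites of expression, being the highest at 67.1 ± 48.5 TPM.

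Few genes separated controls 3 and 4. Of 10570 named genes with at least 10 CPM in any of the 3 controls, 37 differed by at least 2-fold between controls 3 and 4. At least 4-fold was reached by 18, among them 7 processed pseudogenes and 5 sex-linked genes. Some genes passed the CPM limit through control 2 alone. Xist, the RNA that coats the inactive X chromosome, had 1.28, 2683 and 3.15 CPM, and was high in control 3 alone. The Y-linked Eif2s3y had 91.1, 0.14 and 176 CPM. Ddx3y, also Y-linked, had 80.1, 0.0558 and 106 CPM. By these genes control 3 was female and controls 2 and 4 were male. Genes chosen here after their values were seen also differed. Cwc22, a splicing factor, had 2251, 72.8 and 2565 CPM. Crym, the thyroid hormone-binding protein μ-crystallin, had 185, 6.14 and 46.1 CPM. Robo3, an axon guidance receptor, had 38.3, 16.1 and 86.1 CPM. Cwc22 was low in control 3 alone, and Crym differed between all 3. With 1 female library, sex and library cannot be told apart.

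**Figure D4:**
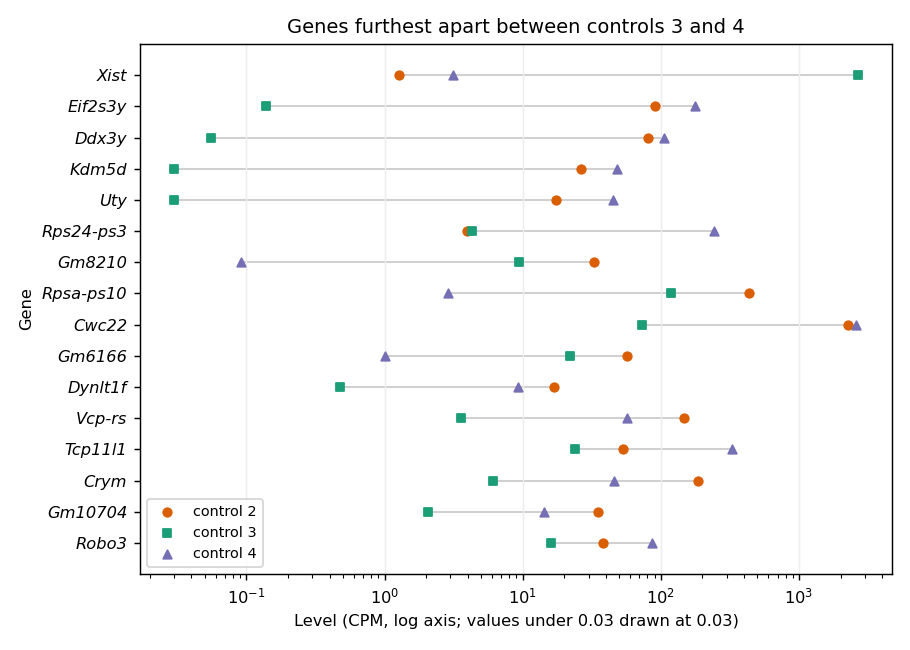
Level of the genes furthest apart between controls 3 and 4, in CPM on a log axis, with 1 point per library. Xist is high in control 3 alone and the 4 Y-linked genes are near 0 there; Cwc22 and Crym are lowest in control 3.

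The distance of control 2 covered the whole transcriptome. Of 13062 detected nuclear genes, 2129 (16.3%) were at least 2-fold above the mean of controls 3 and 4 and 1055 (8.08%) at least 2-fold below it, whereas control 4 had 38 genes at least 2-fold above control 3 and 36 below. Under TMM scaling the counts for control 2 were 1643 and 1416, and the median log2 ratio moved from 0.16 to 0.03. Slc15a2, a peptide transporter, had 85.1, 2.37 and 2.72 CPM. The ribosomal protein gene Rps14 had 547, 45.5 and 55.2 CPM. In the other direction Camta1, a calcium-responsive factor of neurons, had 29.5, 214 and 385 CPM. Ppig, a cyclophilin of splicing speckles, had 102, 731 and 685 CPM. The adhesion receptor Cd44 had 3.94, 84.6 and 42.3 CPM, and of these only Ppig was nearly equal in controls 3 and 4. Ribosomal proteins have many pseudogenes, and Rps2-ps13 had 0.296, 78.4 and 73.2 CPM, so counts of single ribosomal genes are uncertain. The most even genes included Srp68, of the signal recognition particle, with 93.3, 92.5 and 93.5 CPM.

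The ratio followed base composition. Across genes, which are not independent replicates, the Spearman correlation of the log2 ratio of control 2 to controls 3 and 4 with transcript GC content was 0.54 (n = 12961), and with merged exon length -0.32. For control 4 over control 3 the values were 0.12 and -0.07. In 5 equal groups of genes from the lowest to the highest GC content, the median log2 ratio went from -0.47 through -0.13, 0.14 and 0.50 to 0.81. The part of base composition in the distance of control 2 was not tested. By library size, 73 of 80 detected ribosomal protein genes were highest in control 2, against 54.4% of all detected nuclear genes. Under TMM scaling 70 were highest in that library. Genes often used as references were also higher there. Of 14 housekeeping genes, 12 were highest in control 2, with a median log2 ratio of 0.94, and 10 were under TMM scaling. For both lists, the share of all genes highest in control 2 under TMM scaling was not computed. Gapdh, of glycolysis, had 979, 364 and 339 TPM. Actb, β-actin, had 2894, 1057 and 965 TPM. Hprt, of purine salvage, was steadier than both, with 220.1, 198 and 194 TPM.

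**Figure D5:**
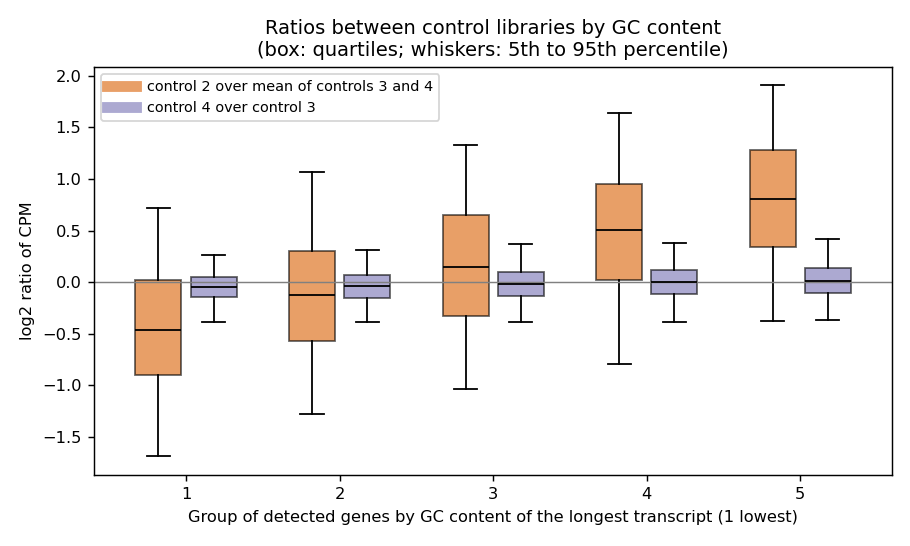
Log2 ratio of CPM between control libraries for detected nuclear genes, in 5 equal groups by transcript GC content from lowest (1) to highest (5); boxes are quartiles around the median, whiskers the 5th to 95th percentile. The medians for control 2 over the mean of controls 3 and 4 climb from -0.47 to 0.81, and those for control 4 over control 3 stay between -0.05 and 0.01.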

How the data were processed

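The 3 control libraries of retinal RNA were used. Per the labels' protocols, RNA came from frozen retinas (Qiagen RNeasy) and libraries from the Illumina TruSeq RNA kit. The submitters' processing notes name the tools STAR, HTSeq and edgeR, without versions, and GRCm38. The deposited values are raw read counts per Ensembl gene. Each file lists 39179 genes; 5 further rows, for reads on no gene or on several, took 26.4 to 28.0% of counts in the controls and were left out of library sizes. Reads aligned to several places, 16.1 to 17.3%, were not on genes.

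Symbols, coordinates and merged exon lengths came from GENCODE vM21 (GRCm38), which matched 37693 identifiers (96.2%); the others held 0.194 to 0.238% of counts. CPM and TPM were computed in Python 3.11.15, with pandas 2.3.3; log2 ratios had 0.1 CPM added. The computation of levels and of detection was checked on simulated counts. A floor of 3 reads over all controls is 0.0267 CPM and covers counting error only. Where nothing says that libraries are separate animals, SDs measure the spread between these samples. Pairs of controls differed by 23.0 to 428 times the chi-square that counting gives, so no pair held the same reads.

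Named were Lhx2 and Pdgfra, the 30 highest nuclear genes, the 30 highest transcription factors, up to 5 highest members of each list and members without reads, sex-linked genes, and genes most unlike and most alike between controls (mean CPM of at least 10); other list members and genes apart between controls 3 and 4 were chosen after their values were seen. The members and lists were chosen with earlier results of these data known. Alternatives were TMM scaling (edgeR 4.0.16), DESeq2 1.42.0 size factors, library sizes without mitochondrial genes, other detection limits, longest transcript lengths, and leaving out each library. A few list members are not reported here.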

Additional observations from a re-analysis of the deposited data

How the results depend on the processing

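The counts of detected genes (13075) and factors (442) stayed within 1.5 times under every alternative: 12116 to 14996 genes and 421 to 501 factors over other scalings and detection limits, and 13198 to 13425 genes and 446 to 450 factors with 1 library left out. The share of counts in the 100 highest genes (17.6%) was 13.4% without mitochondrial genes and 31.7% by TPM, which divides by length, and 16.4 to 20.0% with 1 library left out. The median share of detected members per retinal list (93.75%) was 95.5% at 0.5 CPM, 90.9% at 2 CPM, 95.5% at 10 reads in each control, and 93.75% with any library left out. Of 225 named levels, 45 moved by over 1.5-fold without control 2, 8 without control 3 and 7 without control 4. Of the 30 highest factors, 26 remained without control 2 and 26 with longest transcript lengths; these overlaps were added after the data were seen. No paired analysis was possible because 1 group was described and no test was made.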

Other observations

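Imprinted genes are expressed from 1 parental copy. Of 20 listed, 16 were matched by symbol and 15 detected, with a median of 105 TPM. Detection held for 57.9% of protein-coding genes and 33.4% of all gene rows. As the list was chosen, its count describes the list. Beside Nnat and Plagl1, the maternally expressed noncoding H19 had 444, 658 and 627 TPM, its paternally expressed neighbour Igf2, a growth factor, 62.2, 221 and 177 TPM, and Meg3, a noncoding RNA of another cluster, 64.2, 234 and 273 TPM. Cdkn1c, an inhibitor of cyclin-dependent kinases, had 95.6, 93.8 and 96.3 TPM and hardly differed between libraries. Ndn, a neuronal growth regulator, had 295, 85.1 and 70.8 TPM and was highest in control 2. Dlk1, a membrane ligand, averaged 0.674 ± 0.282 TPM and was not detected.

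Of a chosen list of long noncoding RNAs, 15 of 17 rows were detected, with Dlx6os1 counted in duplicate. Over all lincRNA rows, 146 of 1654 were detected, so the first count describes the list. Miat, known in retinal precursors, had 285, 348 and 456 TPM, the nuclear Malat1 64.8, 408 and 411 TPM and Six3os1, divergent from Six3, 136, 105 and 95.9 TPM. Malat1 was lowest in control 2 and Six3os1 highest there. Neat1, the RNA of paraspeckles, averaged 0.324 ± 0.0423 TPM. Opsins outside rods and cones were low: Rrh, a peropsin, had 19.4, 17.7 and 15.3 TPM, Opn3, encephalopsin, 9.81, 8.41 and 6.37 TPM, and Opn5, neuropsin, had 2 reads over all controls.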
